A study of Mus musculus with 24 samples.

Results

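Transcripts of 9 genes of the insulin-like growth factor (IGF) system and growth hormone reception were followed in whole white adipose tissue of the mouse. The genes were taken by symbol and all 9 matched an Ensembl identifier among the 49585 counted. They are the ligand Igf1, the receptors Igf1r and Ghr, and the binding proteins Igfbp2, Igfbp3, Igfbp4, Igfbp5, Igfbp6 and Igfbp7. RNA of whole tissue was sequenced in 24 libraries from male C57BL/6J mice, in 6 groups. Subcutaneous adipose tissue (SAT) came from mice fed for 20 weeks either a diet with 60% of its energy as fat (n = 4) or a diet with 10% (n = 4). In a separate experiment with 8 weeks of the 60% fat diet, SAT came from Azin2-/- mice (n = 3) and wild-type littermates (n = 5). Epigonadal adipose tissue (GAT) of the same experiment came from Azin2-/- mice (n = 4) and wild-type littermates (n = 4), so every group of that experiment was fed the 60% fat diet. Azin2 encodes antizyme inhibitor 2, a protein of polyamine control, and the labels do not say how its allele was made. Titles carry replicate numbers or animal marks but do not state that libraries are separate animals, so the tests below measure the spread between libraries, which may be technical.

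Growth hormone acts on fat cells through its receptor Ghr, a cytokine receptor that works through the kinase Jak2 and the transcription factors Stat5a and Stat5b. In many tissues this pathway raises the transcription of Igf1, which acts on nearby cells through the receptor tyrosine kinase Igf1r. IGF binding proteins are secreted, hold IGF in the matrix or in blood, and release it when proteases such as pappalysins cut them. Adipose tissue makes Igf1, and its stromal cells secrete several of the binding proteins.

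In the GENCODE M21 annotation of GRCm38 all 9 genes are protein-coding. Igf1 lies on chromosome 10 (87858265-87937042, plus strand), Igf1r on chromosome 7 (67952827-68233668, plus strand) and Ghr on chromosome 15 (3317760-3583492, minus strand). Igfbp2 (72824503-72852474, plus strand) and Igfbp5 (72857932-72874884, minus strand) are close neighbours on chromosome 1. Igfbp3 (7206086-7213923, minus strand) and Igfbp4 (99041244-99054392, plus strand) are both on chromosome 11. Igfbp6 is on chromosome 15 (102144362-102149511, plus strand) and Igfbp7 on chromosome 5 (77349240-77408041, minus strand). Igfbp7 shares 85 exon bases with Polr2b on the opposite strand, which had 1605 to 2518 counts per library, against 4613 to 13504 for Igfbp7. The antisense gene Igf1os overlaps Igf1 without shared exon bases and had 12 to 96 counts, against 4218 to 12975 for Igf1. The sources used here do not say whether counting used strand, so the shared bases cannot be assigned to either gene.

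Total counts ranged from 31.96 to 46.62 megareads per library. Adipocyte markers were detected in every library, with none of the 8 at 0. The subcutaneous transcription factors Hoxc10, Tbx15, Hoxc9 and En1 summed to at least 46.31 CPM (counts scaled to a common library total) in SAT libraries other than low-fat replicate 1, and to at most 8.135 CPM in GAT. The library labelled low-fat replicate 1 had 3.683 CPM of these factors and 24740 CPM of epididymis transcripts, so it goes against its label and the diet results are given with and without it. Epididymis transcripts also summed to 4584 CPM in GAT wild-type replicate 3. The 3 libraries rich in skeletal muscle transcripts were low-fat replicate 5 with 23840 CPM, replicate 2 of Azin2-/- SAT with 72910 CPM and replicate 3 of wild-type SAT with 65260 CPM. Azin2 itself had 8.07 to 11.7 normalised CPM in Azin2-/- SAT, against 16.1 to 25.3 in wild-type SAT (log2 fold change -0.97 ± 0.203 SE, adjusted p = 0.244). It had 12.3 to 18.7 CPM in Azin2-/- GAT, against 22.4 to 25.7 in wild-type GAT (-0.74 ± 0.141, adjusted p = 0.0408). All Azin2-/- libraries lay below all wild-type libraries of their depot, and reads of the gene remained in each.

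Levels of the 9 transcripts were compared with each other per kilobase of annotated exon. Igfbp7, which binds IGF weakly and is made by vessels and stroma, ranked highest in all 6 groups. Its mean was 259 normalised CPM per kb in high-fat SAT, 230 in low-fat SAT, 221 in Azin2-/- SAT, 232 in wild-type SAT, 219 in Azin2-/- GAT and 193 in wild-type GAT. Ghr and Igfbp4 came next in all 6 groups, in either order, with means of 118 (Ghr) and 85.1 (Igfbp4) CPM per kb in high-fat SAT and 162 for each in wild-type SAT. Igf1 ranked 6 or 7 of the 9, at 17.4 to 30.2 CPM per kb, close to Igfbp3 at 12.7 to 26.1. Igf1r and Igfbp2 were lowest in every group, with group means of 1.68 to 5.88 CPM per kb for Igf1r and 0.125 to 5.69 for Igfbp2. Of the 48 neighbouring pairs in these orders, 23 had ranges over libraries that did not overlap, so about as many neighbours did not differ beyond their spread. Ordered by normalised CPM across groups, each gene had ranges that overlapped between nearly all neighbouring groups, with the exceptions of high-fat SAT and Azin2-/- GAT for Igf1r and of Azin2-/- SAT and high-fat SAT for Igfbp3.

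**Figure D1:**
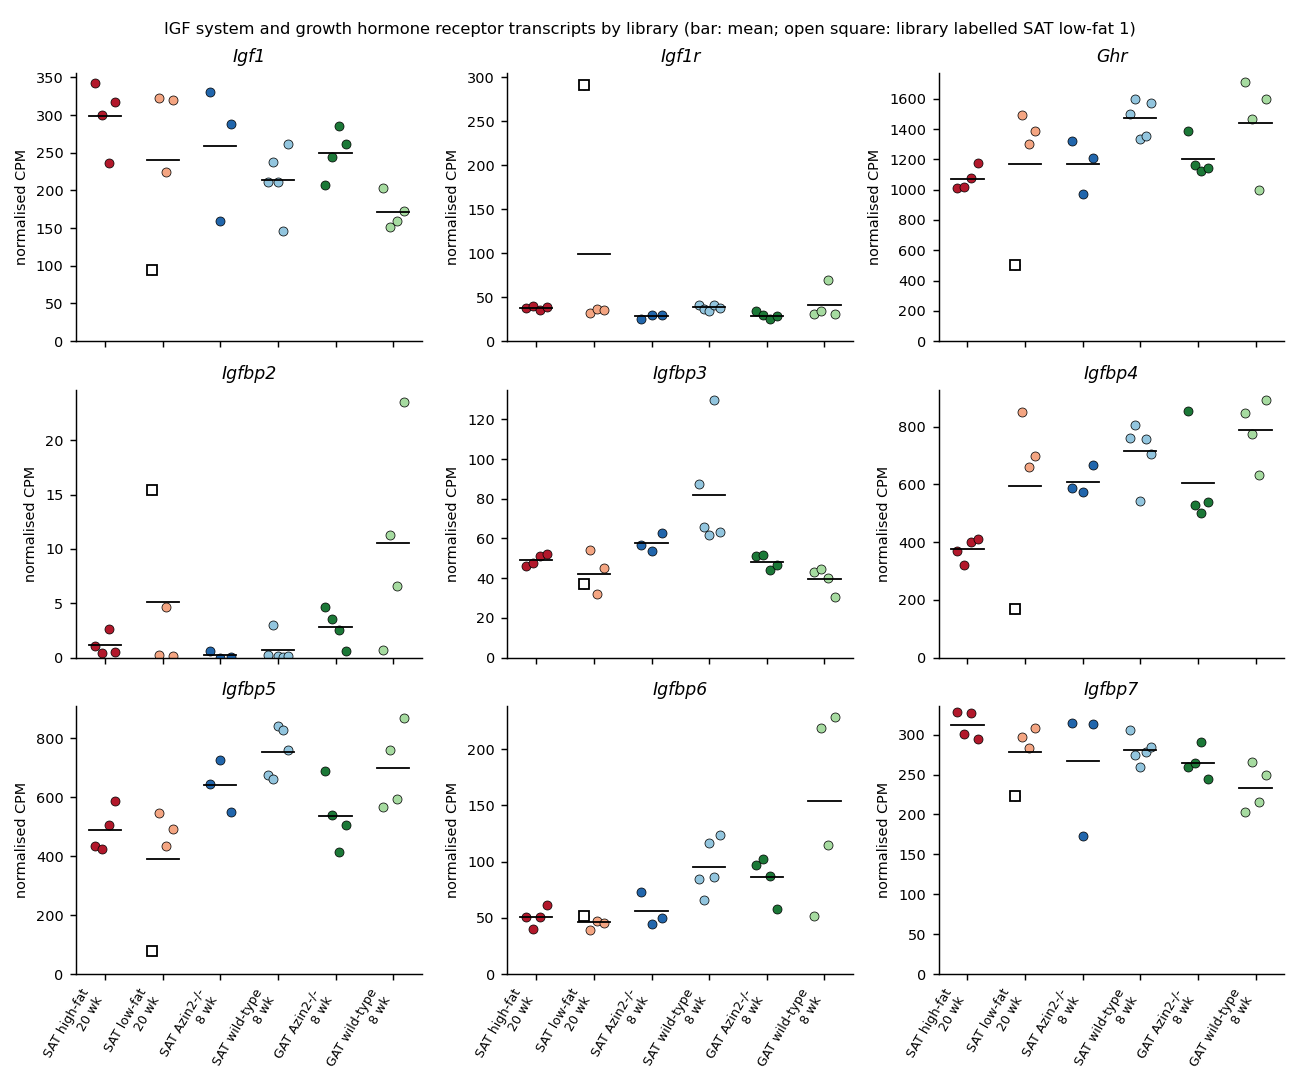
Normalised CPM of the 9 genes in each of the 24 libraries (vertical axes, from 0), by group (horizontal axes; points are libraries, bars are group means, the open square is the library labelled low-fat replicate 1). Igfbp4 and Ghr sit low in high-fat SAT at 320 to 412 and 1009 to 1173 CPM, and Igf1r stands at 291 CPM in the open square against 31.7 to 36.8 in the other low-fat libraries.

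Tests were run over all genes past a low-count filter with edgeR's quasi-likelihood test. Calls below are those with an adjusted p (Benjamini-Hochberg, over all genes) under 0.05. In SAT, 20 weeks against 8 weeks of high-fat diet called 6 of the 9 genes, 1 higher and 5 lower, where 39% of all tested genes were called (19.6% higher, 19.5% lower). Azin2-/- against wild-type called 1 of 9 in GAT, Igf1, higher, where 6.77% of genes were called and 5.45% were called higher. It called 0 of the 8 tested in SAT, where 0.0059% of genes were called. GAT against SAT called 1 of 9 in wild-type mice, Igfbp3, lower, where 4.33% of genes were called and 1.87% were called lower. It called 0 of 9 in Azin2-/- mice, where 15.2% of genes were called. Without the library rich in epididymis transcripts, or without those rich in either epididymis or muscle transcripts, the wild-type depots gave 0 of 9 calls, where 5.29% and 6.67% of genes were called. High-fat against low-fat diet called 0 of 9 with all 8 libraries, where 21.2% of genes were called. Without the library labelled low-fat replicate 1 it called 2 of 9, Igfbp4 and Ghr, both lower, where 47% of genes were called and 23.5% were called lower. Leaving out the muscle-rich replicate 5 as well also called 2 of 9, where 42.2% of genes were called. The genotype effect differed between depots for 0 of 9 genes and for 0% of all genes. The high-fat libraries are shared by the diet and the weeks comparisons, and the wild-type SAT libraries by the weeks, genotype and depot comparisons.

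The counts of 0 depended on the tool. At an unadjusted p under 0.05 edgeR had 0 of 9 genes for diet and 3 of the 8 tested for genotype in SAT (Igf1r, Ghr and Igfbp6). Without the muscle-rich libraries, genotype in SAT had 3 of 9 (Igf1, Igf1r and Igfbp4), and 2513 of 17277 over all genes. With all libraries edgeR had 3 of 9 for the depots in Azin2-/- mice (Igfbp2, Igfbp3 and Igfbp6) and 1 of 9 for the difference between depots (Igfbp3). Over all genes it had 6349 of 17066 for diet, 1745 of 16948 for genotype in SAT and 5800 of 16800 for the depots in Azin2-/- mice. DESeq2 called 0 of the 8 genes given an adjusted p for diet, 1 for genotype in SAT (Igf1r), 1 for the depots in Azin2-/- mice (Igfbp2) and 0 for the difference between depots. Limma-voom with sample quality weights called 2 of 9 for diet (Igfbp4 and Ghr), 1 for genotype in SAT (Igf1r), 1 for the depots in Azin2-/- mice (Igfbp3) and 1 for the difference between depots (Igfbp3). Over all genes, DESeq2 called 5395 of 16136 for diet, 338 of 16581 for genotype in SAT and 4387 of 16515 for the depots in Azin2-/- mice. Limma-voom called 7999 of 17066, 299 of 16948 and 6631 of 16800 for the same comparisons. Over all 18033 genes tested for the difference between depots, 2016 had an unadjusted p under 0.05 in edgeR, DESeq2 called 158 and limma-voom 2731.

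Igf1, the ligand, was higher without Azin2 in GAT and higher after 20 than after 8 weeks of high-fat diet in SAT. In GAT it had 207, 244, 285 and 262 normalised CPM in Azin2-/- libraries, against 203, 152, 160 and 173 in wild-type libraries. Every Azin2-/- library lay above every wild-type library, though the lowest Azin2-/- and the highest wild-type library were nearly equal. This was a log2 fold change of 0.55 ± 0.118 (SE, n = 4 and 4, adjusted p = 0.0409). It lay between 0.46 and 0.62 when each library was left out in turn. Leaving out replicate 2, 3 or 4 of the Azin2-/- libraries ended the call, at adjusted p values of 0.142, 0.129 and 0.128. Leaving out wild-type replicate 2 (0.0941) or 4 (0.119) ended it too. Without any 1 of these libraries edgeR called at most 1 of all genes, against 1136 with all libraries, so nearly every call ended. The unadjusted p of Igf1 in those edgeR fits was 0.00429 to 0.00558. The Igf1 call was also lost with no low-count filter (0.0641), where 0 genes were called. With all 24 libraries in 1 fit it was lost too (0.24), where 1213 genes were called. Beside this, macrophage markers summed to 1103 to 2593 CPM in Azin2-/- GAT and 598.3 to 890.6 CPM in wild-type GAT, with 7 of 8 markers called higher. Progenitor and fibroblast markers summed to 4401 to 6485 CPM in Azin2-/- GAT and 3213 to 4089 CPM in wild-type GAT, with 2 of 8 called higher. Lymph node B cell markers summed to 2.611 to 4.713 CPM in Azin2-/- GAT and 6.916 to 21.44 CPM in wild-type GAT, with 4 of 4 called lower, and 3 of 4 without wild-type replicate 3. None of the markers of these lists was at 0 in any library, and their part in the result was not tested. In whole tissue, a change in the number of cells of a type and a change in RNA per cell cannot be told apart.

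In SAT, Igf1 had 343, 300, 236 and 317 normalised CPM after 20 weeks of high-fat diet, against 211, 238, 211, 146 and 261 in wild-type mice after 8 weeks. The groups overlapped, with a single 20-week library inside the 8-week range. Igf1 differed by a log2 value of 0.48 with an SE of 0.161 (adjusted p = 0.0371). This call was lost without 20-week replicate 3 (adjusted p = 0.106), 4 (0.0802) or 6 (0.0916) and without 8-week replicate 1 (0.0679) or the muscle-rich replicate 3 (0.0529). It was also lost with no low-count filter (0.0514) and with all 24 libraries in 1 fit (0.197). The groups come from separate experiments, so weeks on the diet and experiment cannot be told apart. Macrophage markers summed to 1034 to 1342 CPM at 20 weeks and 329.8 to 625.6 CPM at 8 weeks, with 8 of 8 called higher, and none was at 0. Progenitor and fibroblast markers summed to 6108 to 6701 CPM at 20 weeks and 4677 to 5555 CPM at 8 weeks, without overlap, with 1 of 8 called higher and 1 lower. Adipocyte markers summed to 24090 to 24680 CPM at 20 weeks and 21150 to 31300 CPM at 8 weeks, with 3 of 8 called lower. The part of these markers in the results for Igf1, Ghr and the binding proteins at 20 against 8 weeks was not tested.

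Igf1 passed the test in no other comparison. High-fat and low-fat SAT averaged 299 ± 45.9 and 240 ± 108 normalised CPM (SD, n = 4 each), a log2 fold change of 0.30 with a 95% interval of -0.51 to 1.11. Without the library labelled low-fat replicate 1, where Igf1 had 93.9 CPM, the log2 fold change was 0.04 (-0.33 to 0.42). In SAT, Igf1 had 330, 159 and 288 CPM in Azin2-/- libraries against 146 to 261 CPM in wild-type libraries, and the lowest Azin2-/- value was that of the muscle-rich replicate 2. The log2 fold change in SAT was 0.28 (-0.28 to 0.84), and the GAT effect minus the SAT effect of genotype was 0.27 (-0.35 to 0.89, adjusted p = 0.747). Between GAT and SAT, Igf1 had log2 fold changes of -0.31 (-0.67 to 0.04) in wild-type and -0.05 (-0.60 to 0.50) in Azin2-/- mice.

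The region before the start of Igf1 is printed since Igf1 was called higher both in Azin2-/- GAT and at 20 weeks. It is set beside that of Igfals, its partner in blood, which was called higher in the same comparisons, and that of Igfbp4, the member with the lowest log2 fold change at 20 weeks. Sequences are the 250 bases before the RefSeq start on GRCm38.p6, read on the strand of the gene. Igf1 is at chr10:87860861-87861110 (plus strand, inside the GENCODE span of the gene), Igfals at chr17:24877594-24877843 (plus strand, the first of 3 RefSeq starts) and Igfbp4 at chr11:99040994-99041243 (plus strand). Capitals mark matches to TTCNNNGAA, the palindrome bound by Stat5, and to TATAAA, the TATA box. They also mark TGANTCA, a loose form of the AP-1 palindrome that allows any base at its centre.
Igf1: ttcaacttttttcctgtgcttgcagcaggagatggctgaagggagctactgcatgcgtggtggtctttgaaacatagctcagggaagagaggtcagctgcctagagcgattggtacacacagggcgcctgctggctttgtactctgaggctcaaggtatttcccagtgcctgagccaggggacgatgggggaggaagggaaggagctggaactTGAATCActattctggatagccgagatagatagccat
Igfals: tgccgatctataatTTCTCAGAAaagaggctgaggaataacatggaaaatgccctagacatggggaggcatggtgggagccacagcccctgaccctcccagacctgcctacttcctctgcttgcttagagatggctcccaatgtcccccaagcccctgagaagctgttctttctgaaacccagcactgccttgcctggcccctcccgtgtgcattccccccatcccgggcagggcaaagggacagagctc
Igfbp4: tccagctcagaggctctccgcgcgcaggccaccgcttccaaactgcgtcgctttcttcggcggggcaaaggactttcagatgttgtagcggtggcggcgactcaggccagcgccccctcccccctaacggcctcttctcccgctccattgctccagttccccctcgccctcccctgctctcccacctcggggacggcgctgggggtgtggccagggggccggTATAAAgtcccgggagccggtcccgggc
TTCNNNGAA was found once in the Igfals sequence and TGANTCA once in the Igf1 sequence, and both motifs read the same on either strand. TATAAA, searched on both strands, was found once in the Igfbp4 sequence. Of 32851 RefSeq windows of the same 250 bases before a start, 7.02% held TTCNNNGAA, 6.75% TGANTCA and 12.4% TATAAA. TTCNNNGAA was also found before the second Igfals start but not before the third, and in no window of the 9 genes. Among the 9 genes, TATAAA was also found before Igfbp6 and before the second RefSeq start of Ghr, and TGANTCA before the second starts of Igfbp2 and Ghr. The Igf1 and Ghr matches are TGAATCA, with A at the centre, and so meet only the loose form. The Igfbp2 match is TGAGTCA. These matches describe letters in the windows and no binding was measured.

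Ghr, the growth hormone receptor, was lower in high-fat SAT at 20 weeks than in wild-type SAT at 8 weeks. It had 1009, 1019, 1078 and 1173 normalised CPM at 20 weeks, against 1496, 1595, 1337, 1353 and 1569 at 8 weeks. No 20-week library reached the 8-week range. Ghr had a log2 fold change of -0.46 ± 0.0798 (estimate ± SE) and an adjusted p of 0.0016, and the call held without each library in turn. With all 24 libraries in 1 fit it was not called (adjusted p = 0.129). The sums of macrophage and of progenitor and fibroblast markers separated the same groups, as given for Igf1. The median log2 fold change was 1.54 over the macrophage list and 0.02 over the progenitor and fibroblast list. Of the second list, 1 of 8 was called higher and 1 lower.

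Against the low-fat diet, the call for Ghr turned on a single library. Ghr had 1490, 1301 and 1385 CPM in low-fat replicates 3, 5 and 6, all above the high-fat libraries, and 503 CPM in the library labelled low-fat replicate 1, below them. With all 8 libraries the log2 fold change was -0.14 ± 0.306 (SE, adjusted p = 0.753). Without that library it was -0.39 ± 0.0777 (adjusted p = 0.00389). Adipocyte markers summed to 24090 to 24680 CPM in high-fat SAT and 24070 to 28460 CPM in those 3 low-fat libraries, and to 7594 CPM in low-fat replicate 1. Without that library 4 of the 8 adipocyte markers were called lower and 2 higher. Macrophage markers summed to 1034 to 1342 CPM in high-fat SAT and 229.4 to 334.2 CPM in low-fat SAT, with 8 of 8 called higher, and none of either list was at 0. Progenitor and fibroblast markers summed to 6108 to 6701 CPM in high-fat SAT and 1262 to 3847 CPM in low-fat SAT, with 6 of 8 called higher without that library. The part of these in the diet values of Ghr and Igfbp4 was not tested.

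Ghr was not called for Azin2 loss by edgeR in either depot, while limma-voom called it lower in GAT (-0.39, adjusted p = 0.00767). For genotype in GAT limma-voom called 6456 of all 16778 genes, which is the background of its other calls in that comparison too. In SAT Ghr had 1321, 972 and 1208 normalised CPM in Azin2-/- libraries, against 1337 to 1595 CPM in wild-type libraries. All Azin2-/- libraries lay below all wild-type libraries, and the log2 fold change was -0.33 ± 0.131 (SE, adjusted p = 0.452). Without the muscle-rich libraries, among them Azin2-/- replicate 2 with 972 CPM, it was -0.24 (adjusted p = 0.399). In GAT the Azin2-/- libraries had 1384, 1161, 1121 and 1141 CPM, against 1708, 1466, 998 and 1595 CPM in wild-type libraries. These overlapped through wild-type replicate 3, the library with epididymis transcripts, and the log2 fold change was -0.25 ± 0.167 (adjusted p = 0.347). Between GAT and SAT no difference was called for Ghr, with log2 fold changes of -0.03 (95% interval -0.36 to 0.29) in wild-type and 0.04 (-0.29 to 0.38) in Azin2-/- mice.

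Igf1r, the signalling receptor of the ligand, was not called in any comparison when edgeR was fitted on the groups compared, and its values in Azin2-/- SAT lay apart. It had 25.3, 29.2 and 30 normalised CPM in Azin2-/- libraries, against 41.5, 36.5, 34.6, 41 and 37.8 in wild-type libraries. The groups did not overlap, and the log2 fold change was -0.44 ± 0.091 (SE, adjusted p = 0.244 in edgeR). DESeq2 (adjusted p = 0.00379) and limma-voom (0.0376) called it. In GAT it had 33.7, 29.2, 24.8 and 28.5 CPM in Azin2-/- libraries, against 30.4, 34.4, 69.7 and 30.3 CPM in wild-type libraries. The high wild-type value was that of the library with epididymis transcripts. The log2 fold change in GAT was -0.50 ± 0.28 (adjusted p = 0.268), and -0.11 ± 0.109 (adjusted p = 0.54) without that library.

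The diet comparison of Igf1r rested on the library labelled low-fat replicate 1. High-fat SAT had 38, 39.6, 35.7 and 38.4 normalised CPM, against 291, 31.7, 36.8 and 35.9 CPM in low-fat SAT. The log2 fold change was -1.45 ± 0.783 (SE, adjusted p = 0.216) with all libraries and 0.12 ± 0.0733 (adjusted p = 0.225) without that library. With all 24 libraries in 1 fit, that library included, edgeR called Igf1r lower (-1.40 ± 0.51, adjusted p = 0.0412). Between 20 and 8 weeks of high-fat diet it was -0.02 with a 95% interval of -0.16 to 0.12. Between GAT and SAT it was 0.11 in wild-type mice (adjusted p = 0.828), -0.28 without the epididymis-rich library (0.0871), and 0.04 in Azin2-/- mice (0.822). The genes whose profile over the 24 libraries, centred on their own mean, was nearest to that of Igf1r among 12435 protein-coding candidates were St6galnac2, Dpy19l4 and Hip1r, with root mean square differences of 0.198, 0.214 and 0.218 on the log2(CPM + 0.5) scale. They were likewise high in the epididymis-rich libraries: Dpy19l4 had 222 CPM in low-fat replicate 1 and 79.9 in GAT wild-type replicate 3, against 30.4 to 42.8 in the other libraries. Without low-fat replicate 1 the SD of Igf1r over libraries was 0.3, against 0.689 with it.

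**Figure D2:**
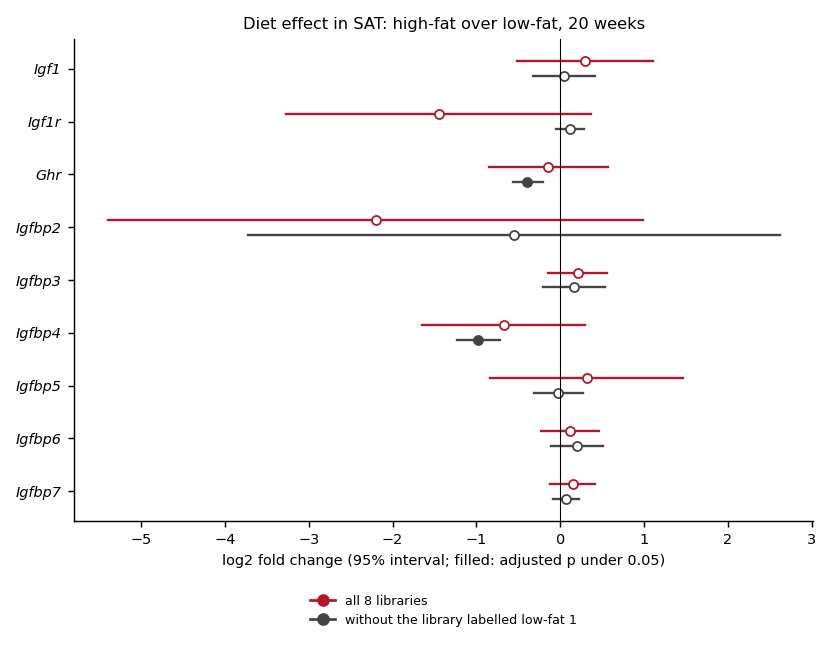
Log2 fold change of high-fat over low-fat SAT at 20 weeks (horizontal axis) for the 9 genes (vertical axis), with all 8 libraries above and without the library labelled low-fat replicate 1 below. Lines are 95% intervals and filled points have an adjusted p under 0.05; without that library Igfbp4 (-0.98) and Ghr (-0.39) were called, and the interval of Igf1r became narrow around 0.12.

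Igfbp4, a binding protein that restrains IGF until the protease Pappa cuts it, was lower in high-fat SAT at 20 weeks than in wild-type SAT at 8 weeks, and lower than in low-fat SAT once the library labelled low-fat replicate 1 was left out. It had 370, 320, 401 and 412 normalised CPM in high-fat SAT. In low-fat SAT it had 851, 662 and 698 CPM in replicates 3, 5 and 6 and 167 CPM in the library labelled low-fat replicate 1. Every high-fat library lay below those 3 and above that library. Its log2 fold change was -0.67 ± 0.42 (SE, adjusted p = 0.277) with all libraries and -0.98 ± 0.112 (adjusted p = 0.000243) without it. Wild-type SAT at 8 weeks had 762, 806, 542, 756 and 706 CPM. The high-fat 20-week libraries lay below all of these, with a log2 fold change of -0.93 ± 0.119 (adjusted p = 0.000325). The call against 8 weeks held without each library in turn, and with all 24 libraries in 1 fit.

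Igfbp4 was not called for Azin2 loss by edgeR with all libraries, while limma-voom called it lower in GAT (-0.61, adjusted p = 0.00457). In GAT, Igfbp4 had 854, 530, 500 and 539 normalised CPM in Azin2-/- libraries, against 849, 776, 633 and 892 CPM in wild-type libraries. Azin2-/- replicate 1 lay within the wild-type range and the other Azin2-/- libraries below it. Over all libraries it was -0.37 ± 0.194 on the log2 scale (SE, adjusted p = 0.245), and without Azin2-/- replicate 1 it was -0.59 ± 0.124 and called (adjusted p = 0.0194). In SAT the log2 fold change was -0.23 with a 95% interval of -0.54 to 0.08. Between GAT and SAT it was 0.14 in wild-type (adjusted p = 0.569) and -0.01 in Azin2-/- mice (0.986).

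Igfbp5, which binds the matrix and can carry IGF in blood, was also lower at 20 than at 8 weeks of high-fat diet. It had 435, 423, 505 and 587 normalised CPM at 20 weeks, against 674, 661, 842, 830 and 762 at 8 weeks. No library overlapped the other group, and the log2 fold change was -0.64 ± 0.124 (SE, adjusted p = 0.00303). The call held without each library in turn and was lost with all 24 libraries in 1 fit (adjusted p = 0.177). Against low-fat SAT no difference was shown: low-fat replicates 3, 5 and 6 had 548, 436 and 493 CPM, within the high-fat range, and the log2 fold change without low-fat replicate 1 was -0.02 (95% interval -0.31 to 0.27). In that library Igfbp5 had 78.8 CPM. For Azin2 loss the log2 fold changes were -0.23 (-0.57 to 0.11) in SAT and -0.37 (-0.81 to 0.07) in GAT, the second of which limma-voom called (-0.59, adjusted p = 0.00978). For GAT over SAT they were -0.12 in wild-type (adjusted p = 0.68) and -0.26 in Azin2-/- mice (0.382).

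Igfbp3, the main IGF carrier of blood, was lower in GAT than in SAT of wild-type mice. It had 43.2, 44.7, 40.3 and 30.5 normalised CPM in GAT, against 87.7, 66, 61.7, 130 and 63.5 in SAT. All GAT libraries lay below all SAT libraries, and the log2 fold change was -1.05 ± 0.234 (SE, n = 4 and 5, adjusted p = 0.0389). The call was lost without GAT replicate 1 (adjusted p = 0.0714), 2 (0.0843), 3 (0.0657) or 4 (0.0994) and without SAT replicate 1 (0.0953) or 5 (0.0572). GAT replicate 3 is the library with epididymis transcripts. Without SAT replicate 4, the highest value, the log2 fold change was -0.82 and called. With no low-count filter it was not called (0.0672). Some GAT and SAT libraries carry the same animal mark, and with the mark as a block the log2 fold change was -0.59 and not called (0.223). Only libraries with a shared mark have weight in that contrast. It leaves out SAT replicates 1 and 4, with the highest SAT values (87.7 and 130 CPM), and GAT replicate 4, with the lowest GAT value (30.5 CPM). That edgeR fit called 0 of 17030 genes, and Igfbp3 had an unadjusted p under 0.05 in it. Progenitor and fibroblast markers summed to 3213 to 4089 CPM in wild-type GAT and 4677 to 5555 CPM in wild-type SAT, with 3 of 8 called lower, and their part in the result was not tested.

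In Azin2-/- mice Igfbp3 had 51, 51.8, 44.1 and 46.7 normalised CPM in GAT, against 56.5, 53.9 and 62.7 in SAT. The groups did not overlap, and the log2 fold change of -0.25 ± 0.0851 (SE) was not called (adjusted p = 0.083). The genotype effect on Igfbp3 was 0.30 (95% interval 0.01 to 0.58) in GAT and -0.50 (-1.06 to 0.06) in SAT, neither called by edgeR, while limma-voom called the GAT effect (0.38, adjusted p = 0.0422). The difference between these effects was 0.80 ± 0.289 (adjusted p = 0.375), and limma-voom called it too (0.0267). In SAT at 20 weeks of high-fat diet Igfbp3 had 46, 47.7, 51.3 and 52 CPM, below all 8-week wild-type libraries, with a log2 fold change of -0.74 ± 0.217 (adjusted p = 0.0246). That call was lost without 20-week replicate 3 (0.0678), 4 (0.0662), 5 (0.0505) or 6 (0.054), and with no low-count filter (0.066). High-fat and low-fat SAT overlapped, with a log2 fold change of 0.21 (-0.14 to 0.56), and of 0.17 without low-fat replicate 1.

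Igfbp6, which prefers Igf2 to Igf1, was lower at 20 than at 8 weeks of high-fat diet in SAT. It had 50.6, 40.5, 51.1 and 61.6 normalised CPM at 20 weeks, against 85, 66.3, 117, 86.1 and 124 at 8 weeks. The groups did not overlap, the log2 fold change was -0.92 ± 0.198 (SE, adjusted p = 0.00589), and the call held without each library in turn. Low-fat SAT had 39.5 to 51.8 CPM, overlapping the high-fat libraries, with a log2 fold change of 0.12 (95% interval -0.23 to 0.46), and of 0.20 without low-fat replicate 1. In SAT, Azin2-/- libraries had 73.1, 44.7 and 49.6 CPM, and only the first lay within the wild-type range. The log2 fold change there was -0.78 ± 0.245 (adjusted p = 0.361). Without the muscle-rich libraries, among them Azin2-/- replicate 2 with 44.7 CPM, it was -0.55 (adjusted p = 0.412). For GAT over SAT it was 0.68 ± 0.404 in wild-type (adjusted p = 0.355) and 0.63 ± 0.243 in Azin2-/- mice (0.116), the second of which was called without SAT replicate 1 (0.87, adjusted p = 0.0465).

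In GAT, Igfbp6 and Igfbp2 varied widely between wild-type libraries. Igfbp6 had 97.2, 102, 87.3 and 58.3 normalised CPM in Azin2-/- GAT, against 51.8, 219, 115 and 229 in wild-type GAT. Igfbp2, a binding protein that can also bind integrins, had 4.66, 3.51, 2.54 and 0.579 CPM in Azin2-/- GAT, against 0.68, 11.3, 6.56 and 23.5 in wild-type GAT. For both genes the lowest library of each genotype was the same, Azin2-/- replicate 4 and wild-type replicate 1. Those 2 libraries also had the lowest summed mesothelium markers (Msln, Upk3b, Lrrn4, Krt19 and Wt1) of their genotype. These markers summed to 120, 124.2, 80.22 and 27.8 CPM in Azin2-/- GAT, against 56.69, 429.3, 258.6 and 455.6 CPM in wild-type GAT. In SAT they were near 0, with 0.899 to 7.286 CPM in all libraries but low-fat replicate 1, which had 128.4 CPM and 15.4 CPM of Igfbp2. The genotype log2 fold change in GAT was -0.83 ± 0.428 (SE, adjusted p = 0.236) for Igfbp6 and -1.88 ± 0.926 (adjusted p = 0.216) for Igfbp2. Limma-voom called Igfbp6 (-1.15, adjusted p = 0.032). Without wild-type replicate 1 that of Igfbp6 in edgeR was -1.12 ± 0.274 and called (adjusted p = 0.0472). The part of mesothelium in these values was not tested.

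Igfbp2 was near the detection limit in most SAT libraries. It had 0.611, 0 and 0.0837 normalised CPM in Azin2-/- SAT, against 0.214, 3.02, 0.141, 0.0283 and 0.122 in wild-type SAT, where a count of 0 allows up to 3 counts. It was filtered out of the genotype test in SAT. Outside the library labelled low-fat replicate 1, the highest SAT values were 2.64 CPM in high-fat replicate 5, 4.66 in low-fat replicate 5 and 3.02 in wild-type replicate 2. The same 3 libraries had summed liver transcripts (Alb, Apoa1 and Ttr) of 988.1, 773.3 and 724.6 CPM, against at most 315.9 CPM in every other library. The part of these transcripts in the Igfbp2 values was not tested. High-fat SAT had 1.09, 0.435, 2.64 and 0.506 CPM, against 15.4, 0.279, 4.66 and 0.15 in low-fat SAT, with a log2 fold change of -2.20 (adjusted p = 0.277) and of -0.55 (0.758) without low-fat replicate 1. The direction turned when the muscle- and liver-rich low-fat replicate 5 was left out as well (2.44, 95% interval 0.25 to 4.62, adjusted p = 0.0718), and in limma-voom with all libraries (0.75, adjusted p = 0.591). Between GAT and SAT the log2 fold change of Igfbp2 was 3.50 ± 1.08 (SE, adjusted p = 0.0672) in Azin2-/- and 3.86 ± 1.37 (adjusted p = 0.155) in wild-type mice. It was called without Azin2-/- SAT replicate 1 (5.82, adjusted p = 0.0276) and without wild-type SAT replicate 2 (6.32, adjusted p = 0.0268), each the highest Igfbp2 value of its SAT group. Without wild-type SAT replicate 2 Igfbp2 was also called higher at 20 than at 8 weeks (3.15, adjusted p = 0.00843), where all libraries gave 0.70 ± 1.18 (adjusted p = 0.664).

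**Figure D3:**
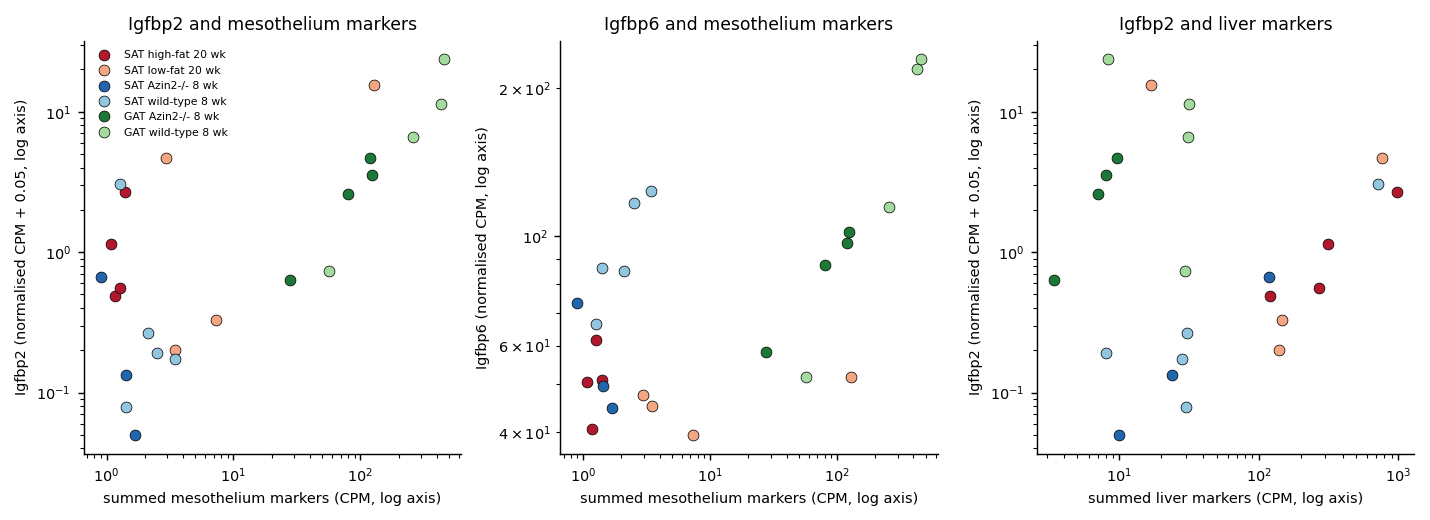
Igfbp2 and Igfbp6 (vertical axes, normalised CPM, log scale, with 0.05 added for Igfbp2) against summed mesothelium or liver markers (horizontal axes, CPM, log scale) in the 24 libraries, coloured by group. In GAT both genes are lowest in the libraries with the lowest mesothelium sums of 27.8 and 56.69 CPM, and in SAT Igfbp2 reaches 2.64 to 4.66 CPM in the 3 libraries with liver sums of 724.6 to 988.1 CPM.

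The profiles nearest to Igfbp2 and Igfbp6 over the 24 libraries were taken by the same measure of likeness. Nearest to Igfbp2 (SD 1.684 on the log2 scale) were Fmod, Lsr and Pard6b, with root mean square differences of 0.918, 0.934 and 0.938. Nearest to Igfbp6 (SD 0.709) were Nbl1, Osr1 and Ecm1, with 0.283, 0.384 and 0.386. Fmod, a small proteoglycan of matrix, had 13.1, 84.9, 62.2 and 114 CPM in wild-type GAT, with the same library lowest as for Igfbp2. The libraries share depth and tissue makeup, so this likeness is a description.

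Igfbp7 varied least of the 9 genes, with an SD of 0.229 on the log2 scale over all libraries, and passed the edgeR test in no comparison. Its group means were 313, 278, 267, 280, 264 and 233 normalised CPM in high-fat SAT, low-fat SAT, Azin2-/- SAT, wild-type SAT, Azin2-/- GAT and wild-type GAT. The lowest library was SAT Azin2-/- replicate 2, the muscle-rich library, with 173 CPM. At 20 against 8 weeks the log2 fold change was 0.15 ± 0.0668 (SE, adjusted p = 0.0939), and DESeq2 called it (adjusted p = 0.029). In the other comparisons its log2 fold changes were 0.15 for diet (0.07 without low-fat replicate 1), -0.07 for genotype in SAT, 0.19 for genotype in GAT, and for GAT over SAT -0.27 in wild-type and -0.01 in Azin2-/- mice. Of the summed per-kilobase level of the 6 binding proteins, Igfbp7 made up 53.2% ± 3.71 in high-fat SAT at 20 weeks and 36.7% ± 1.82 in wild-type SAT at 8 weeks (SD, n = 4 and 5). Every high-fat 20-week library, at 48% to 56.1%, lay above every 8-week library, at 34.9% to 39.4%. Igfbp4 made up 17.4% ± 0.911 in high-fat SAT at 20 weeks and 25.6% ± 3.65 at 8 weeks, again without overlap. In low-fat SAT, also at 20 weeks, Igfbp7 made up 48.8% ± 8.36 and Igfbp4 25.9% ± 9.12 (SD, n = 4, low-fat replicate 1 included). Every low-fat library, at 42.2% to 61% for Igfbp7, also lay above every 8-week library. These shares were given no test.

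**Figure D4:**
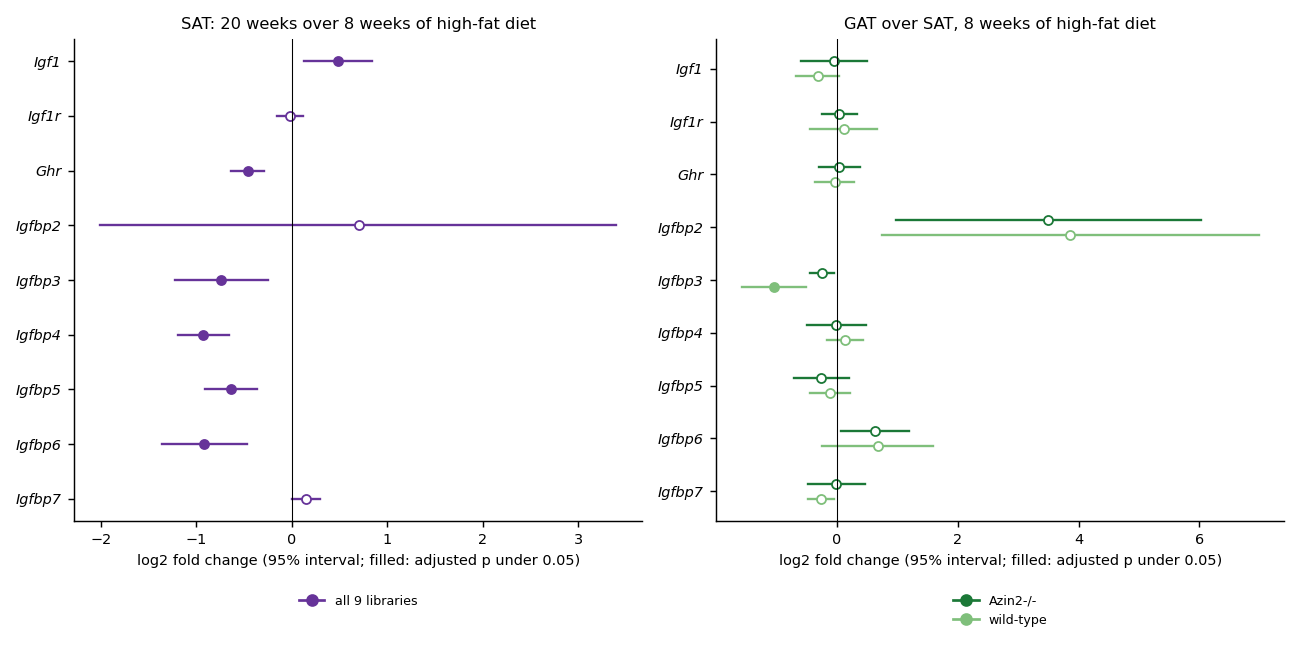
Log2 fold changes (horizontal axes) of the 9 genes (vertical axes) for 20 over 8 weeks of high-fat diet in SAT (left) and for GAT over SAT in Azin2-/- (dark) and wild-type mice (light, right). Lines are 95% intervals and filled points have an adjusted p under 0.05: Igfbp3, Igfbp4, Igfbp5, Igfbp6 and Ghr were lower and Igf1 higher at 20 weeks, and Igfbp3 was lower in wild-type GAT.

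**Figure D5:**
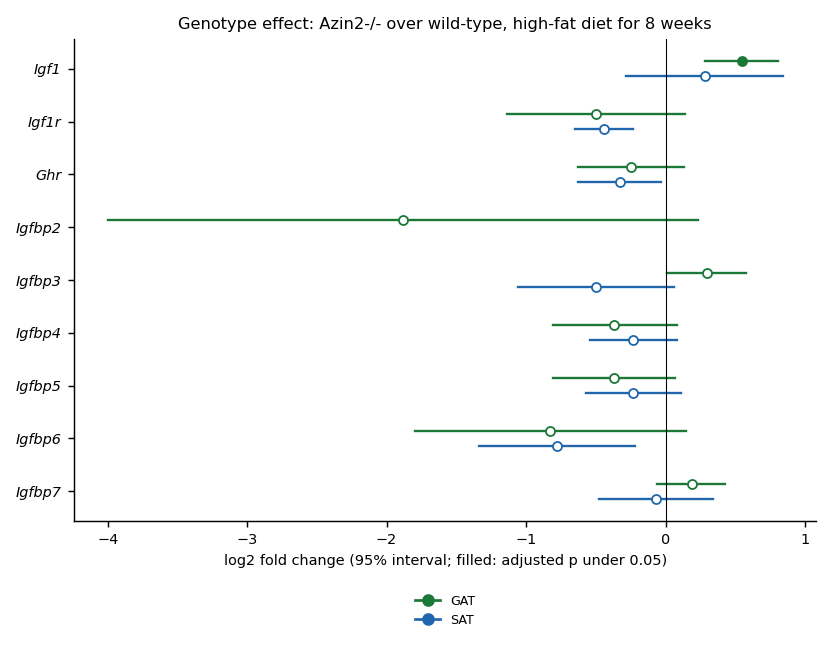
Log2 fold change of Azin2-/- over wild-type (horizontal axis) for the 9 genes (vertical axis) in GAT (green, above) and SAT (blue, below) after 8 weeks of high-fat diet. Lines are 95% intervals and the filled point, Igf1 in GAT at 0.55, has an adjusted p under 0.05; Igfbp2 was filtered out in SAT.

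The median log2 fold change of the 9 genes was -0.46 for weeks of diet, where the median of all tested genes was -0.04. It was -0.37 against -0.03 for genotype in GAT, 0.12 against -0.09 for diet (0.04 against -0.02 without low-fat replicate 1), -0.03 against -0.01 for the depots in wild-type and -0.01 against -0.03 in Azin2-/- mice. Over the 8 genes tested for genotype in SAT it was -0.28, against 0.01 over all genes, and for the difference of effects between depots -0.04 against -0.04.

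A further 33 genes of the pathway, in 5 roles, were read in the same fits. For 20 against 8 weeks of high-fat diet 26 of them were tested, of which 5 were called higher and 3 lower, where 39% of all genes were called. Igfals, the acid-labile subunit that holds Igf1 and Igfbp3 in blood, had 102, 98, 98.7 and 117 normalised CPM at 20 weeks, against 56.1, 67, 59.9, 44.5 and 45.3 at 8 weeks. All 20-week libraries lay above, with a log2 fold change of 0.92 ± 0.127 (estimate ± SE) and an adjusted p of 0.000478. Igf2r, the receptor that clears Igf2, had 175 to 195 CPM at 20 weeks, against 96.7 to 116 at 8 weeks, also without overlap (0.84 ± 0.0679, adjusted p = 4.4e-05). Igf2bp2, a protein that binds Igf2 mRNA, was higher by 0.85 ± 0.158 (adjusted p = 0.00235). The protease Pappa was higher by 1.19 at means of 0.707 and 0.311 CPM (adjusted p = 0.0133).

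Inhibitors of that protease were lower at 20 weeks. Stc2, a stanniocalcin that blocks Pappa, had 13, 12, 14 and 14.4 normalised CPM at 20 weeks, against 41, 42.8, 24.2, 29.6 and 28.2 at 8 weeks. Every 20-week library lay below every 8-week library (log2 fold change -1.31 ± 0.167 SE, adjusted p = 0.000334). Stc1 was lower (log2 fold change -0.81, adjusted p = 0.0332), with groups that overlapped. In growth hormone signalling Stat5a was called lower (-0.44 ± 0.073, adjusted p = 0.00126). In IGF receptor signalling Pik3r1, the regulatory subunit of PI3 kinase, was called higher (0.41, adjusted p = 0.0322) with groups that overlapped. The Pik3r1 call was lost without 20-week replicate 3, 4 or 6 or 8-week replicate 1 (adjusted p = 0.0694 to 0.0975), and that of Stc1 without some single libraries (0.0579 to 0.0913).

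Against the low-fat diet 3 of 26 tested pathway genes were called higher and 2 lower with all libraries, and 7 higher and 7 lower without the library labelled low-fat replicate 1. Of all genes, 21.2% were called with that library and 47% without it. Stc2 was lower with all libraries (-1.35 ± 0.211 SE, adjusted p = 0.005), at 12 to 14.4 normalised CPM in high-fat SAT and 22.2 to 48.6 in low-fat SAT. Igf2r was higher (0.76 ± 0.185, adjusted p = 0.0246), at 175 to 195 CPM in high-fat SAT and 69.1 to 132 in low-fat SAT. The other calls with all libraries were Igf2bp2 (0.86, adjusted p = 0.0249) and the kinase Jak2 (0.21, adjusted p = 0.0452), both higher, and Insrr (-4.67, adjusted p = 0.034), lower, with -2.43 for Insrr without the library labelled low-fat replicate 1. Apart from Stc2, these calls were lost without some single libraries, at adjusted p values of 0.0604 to 0.0724 for Igf2r, 0.0507 to 0.0802 for Igf2bp2, 0.067 to 0.116 for Jak2 and 0.0836 to 0.103 for Insrr. Without that library Irs1, the docking protein of the IGF and insulin receptors, was also lower (-1.19 ± 0.11, adjusted p = 0.000101), and Igfals was higher (0.69 ± 0.207, adjusted p = 0.0309).

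For Azin2 loss in GAT 2 of 27 tested pathway genes were called higher and 1 lower, where 6.77% of all genes were called. Igfals had 94.2, 77.5, 83.7 and 93.3 normalised CPM in Azin2-/- GAT, against 74.6, 45, 58.8 and 54 in wild-type GAT. The groups did not overlap, with a log2 fold change of 0.60 ± 0.145 (estimate ± SE) and an adjusted p of 0.0474, a call that was lost in 7 of the 8 fits without a single library (adjusted p = 0.0548 to 0.145). Igf2bp2 was higher (1.42 ± 0.276, adjusted p = 0.0408) at 13.5, 34.3, 31.3 and 28.8 CPM in Azin2-/- GAT, against 8.78 to 13.2 in wild-type GAT. Pik3r1 was lower (-0.40 ± 0.0687, adjusted p = 0.0408). The Igf2bp2 and Pik3r1 calls were both lost without Azin2-/- replicate 2, 3 or 4 or wild-type replicate 2 or 4 (adjusted p = 0.0851 to 0.142). Without any 1 of those libraries edgeR called at most 1 of all genes, against 1136 with all libraries. In SAT edgeR called 0 of 27 for Azin2 loss, with 2 at an unadjusted p under 0.05, while DESeq2 called 0 and limma-voom 2 (Grb14 and Pappa2). The genotype effect differed between depots for 0 of 28 in edgeR, with 4 at an unadjusted p under 0.05, while DESeq2 called 1 (Pik3r1) and limma-voom 8.

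Between the depots 1 of 27 pathway genes was called higher and 1 lower in wild-type mice, and 1 higher and 4 lower in Azin2-/- mice, where 4.33% and 15.2% of all genes were called. The prolactin receptor Prlr averaged 23.7 ± 9.64 normalised CPM in wild-type GAT and 5.49 ± 1.52 in wild-type SAT (SD, n = 4 and 5), with a log2 fold change of 2.11 ± 0.29 (estimate ± SE) and an adjusted p of 0.00582. Grb14, an adaptor that inhibits insulin receptor signalling, was lower in GAT of wild-type mice (-1.61 ± 0.224, adjusted p = 0.00601) and of Azin2-/- mice (-2.03 ± 0.344, adjusted p = 0.0189). In Azin2-/- mice Pik3r1 (-0.89), Irs1 (-1.07) and Stat5a (-0.36) were also lower in GAT and Igf2bp2 (1.78) was higher. The Azin2-/- calls other than Pik3r1 were lost without some single libraries at adjusted p values of 0.0597 to 0.106, and that of Pik3r1 without GAT replicate 2 (0.0519). Without GAT replicate 2, 3 or 4 or SAT replicate 3, edgeR called 36, 278, 218 and 40 of all genes, against 2549 with all libraries.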

How the data were processed

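Whole-tissue RNA was measured in 24 libraries of 6 groups. The deposited values are raw counts per Ensembl gene, made by the authors with cutadapt, STAR and HTSeq 0.6.1p1 on GRCm38 (mm10), per the submitters' processing notes. RNA came from a NucleoSpin RNA kit and libraries from a stranded total RNA kit, per the labels' protocols. The counting mode and strand setting, and the release of the annotation, were not given in the sources used here. Of 49585 identifiers, 259 were not in GENCODE M21 and held 0.0103% of counts. No 2 libraries held identical values.

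Each comparison was fitted on the libraries of the groups compared with edgeR 4.0.16 in R 4.3.3 (filterByExpr with a minimum count of 10 and total of 15, TMM, robust quasi-likelihood fit), adjusted by Benjamini-Hochberg over all genes tested and called under 0.05. Levels are CPM with TMM over 24 libraries, per kb of union exon between genes. Marker sums are CPM of the total count. The scripts were tested on simulated data. Alternatives were DESeq2 1.42.0 and its size factors, limma-voom (limma 3.58.1), no filter, all libraries in 1 fit, a replicate block, each library left out, and libraries with over 10000 CPM of muscle or 1000 CPM of epididymis transcripts left out. All 9 genes are named in each comparison, other pathway genes where called, and for likeness the 3 nearest protein-coding genes of the 3 genes with the largest SD of log2(CPM + 0.5), among genes with a mean of at least 1. The genes and lists were chosen with earlier results of these data known.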

Additional observations from a re-analysis of the deposited data

Results flagged for a closer look

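In 45 groups of 4 or 5 libraries, 5 held a library far from the others of its group by Dixon's criterion, where chance gives about 1 in 20. Igf1r had 291 normalised CPM in the library labelled low-fat replicate 1, where the other low-fat libraries had 31.7 to 36.8 CPM. Igf1r had 69.7 CPM in GAT wild-type replicate 3, against 30.3 to 34.4 CPM in the other wild-type GAT libraries. Both are the libraries with epididymis transcripts, at 24740 and 4584 CPM, whose part in the Igf1r values was not tested.

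Igfbp2 had 3.02 CPM in SAT wild-type replicate 2, against 0.0283 to 0.214 CPM in the other libraries of its group. In GAT Azin2-/- replicate 1, Igfbp4 had 854 CPM, against 500 to 539 CPM in the other Azin2-/- libraries, and Ghr had 1384 CPM, against 1121 to 1161 CPM. Macrophage markers summed to 1103 CPM in that library and 1969 to 2593 CPM in the other Azin2-/- GAT libraries, and their part was not tested.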

How the results depend on the processing

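Of 62 values of the 9 genes, 8 were called, and of 1091 recomputed values 947 kept their direction and side of the threshold, 33 lost and 32 gained a call. A further 79 changed sign without passing the threshold in either fit, and 0 changed sign with a call. With DESeq2 size factors all 7 counts of called genes equalled the main ones. For diet (0 called), limma-voom and the fit without epididymis-rich libraries, or without those rich in either, called 2, and all 24 libraries in 1 fit called 1. For genotype in SAT (0), DESeq2 and limma-voom each called 1. For genotype in GAT (1), limma-voom called 6, where it called 6456 of all 16778 genes. No filter and all 24 libraries in 1 fit each called 0 there, where 0 of 30262 and 1213 of 18976 genes were called. For the depots in wild-type mice (1), DESeq2 called 2, and no filter and the fits without epididymis-rich libraries or without those rich in either called 0. For the depots in Azin2-/- mice (0), DESeq2 and limma-voom each called 1. For the difference between depots (0), limma-voom called 1. For weeks (6), all 24 libraries in 1 fit called 3, no filter 4 and DESeq2 7. Leaving out each library called 0 to 2 for diet, genotype in GAT and the depots in either genotype, and 4 to 7 for weeks. Over all genes those fits called 1802 to 8109 for diet, 0 to 2672 for genotype in GAT and 5059 to 6955 for weeks. For the depots they called 296 to 909 in wild-type and 36 to 3414 in Azin2-/- mice. The cause of these changes was not tested. A replicate block called 2 for diet, 2 for genotype in GAT, 0 for the depots in wild-type and 2 in Azin2-/- mice. In such a block a library without a same-marked partner in the other group has no weight in the contrast. Each block fit thus rests on the same-marked libraries alone, whose correlations are given below. For diet this leaves out low-fat replicate 1 and high-fat replicate 4, so block and main counts differ in libraries as well as in pairing. Over all genes it called 5867 of 17066, 1716 of 16778, 0 of 17030 and 1099 of 16800 for the same comparisons. The labels do not say that a shared number or mark pairs libraries, so no pairing was taken. Deviations of same-marked libraries correlated at 0.289, -0.194 and 0.093 for diet, 0.834 and 0.502 for genotype in SAT, 0.037, -0.169 and -0.117 for genotype in GAT, 0.302, -0.047 and -0.041 for the depots in wild-type and -0.085 and 0.031 in Azin2-/- mice, so that genotype in SAT alone had every pair above 0.1, with 2 pairs. The pair at 0.834 was the muscle-rich SAT Azin2-/- replicate 2 and wild-type replicate 3, with 72910 and 65260 CPM of muscle transcripts. The pair at 0.502 had 52.1 and 42.11 CPM. The part of muscle transcripts in these correlations was not tested. For genotype in SAT the block called 0 of the 8 genes of the IGF system tested, as did the fit without it. Over all 16948 genes the block called 0 and the fit without it 1.

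Over all genes, edgeR called 3622 of 17066 for diet, against 7999 of 17066 by limma-voom. It called 6056 of 18976 with all 24 libraries in 1 fit and 2335 of 30816 with no filter. It called 1 for genotype in SAT, against 338 by DESeq2 and 299 by limma-voom. It called 1136 of 16778 for genotype in GAT, against 3079 of 16080 by DESeq2, 6456 of 16778 by limma-voom and 0 of 30262 with no filter. It called 738 of 17030 for the depots in wild-type mice, against 1784 of 16351 by DESeq2 and 2479 of 17030 by limma-voom. In Azin2-/- mice it called 2549 of 16800, against 4387 of 16515 and 6631 of 16800. For weeks it called 6614 of 16953, against 4229 of 18976 with all 24 libraries in 1 fit. With no filter it called 5873 of 29767 for weeks, and DESeq2 called 7317 of 16635. Depth limits Igfbp2 most, with 0 counts in 1 library.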
